A study of Mus musculus with 24 samples.

Results

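NF-kB is a family of dimeric transcription factors that macrophages use to turn on inflammatory genes, and the values below follow 34 genes of its circuit across 6 groups of mouse bone marrow-derived macrophage libraries. The members are a list of gene symbols. No measured value enters the rule, but the list was chosen with earlier results of these data known. All 34 were found among the 24421 gene symbols of the count files, and all 34 passed the filter on low counts that left 14693 genes for testing. They fall into 5 subunits (Nfkb1, Nfkb2, Rel, Rela, Relb), 3 cytoplasmic inhibitors (Nfkbia, Nfkbib, Nfkbie), 3 nuclear IkB proteins (Nfkbid, Nfkbiz, Bcl3), 5 kinases (Ikbkb, Ikbkg, Chuk, Ikbke, Map3k8) and 8 receptor-proximal genes (Irak2, Irak3, Peli1, Traf1, Traf2, Traf3, Birc2, Birc3). The others are 5 ubiquitin editors and their partners (Tnfaip3, Tnip1, Tnip2, Tnip3, Cyld), 3 genes for an RNase and phosphatases (Zc3h12a, Dusp1, Dusp2) and 2 further target genes (Icam1, Tnfaip2).

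The cells came from C57BL/6J mice aged 12 weeks. OGT knockout (KO) cells were collected after 12 hours of LPS at 100 ng/ml, after 12 hours of IL-4 at 10 ng/ml, or unstimulated (M0), and wild-type (WT) cells in the same 3 states, with 4 libraries in each of the 6 groups. Ogt encodes the enzyme that adds a single sugar, O-GlcNAc, to nuclear and cytosolic proteins. The labels name no Cre driver or deleted exon and leave unsaid whether the 4 libraries in a group are separate animals or cultures. P-values therefore describe the spread among libraries, which may be technical.

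In resting macrophages NF-kB dimers are held in the cytoplasm by IkB proteins. LPS, a bacterial product sensed by TLR4, acts through IRAK and TRAF adaptors on the IKK kinase complex, which marks IkB for destruction and frees the dimers to enter the nucleus. Many of the genes they switch on encode brakes on the same pathway, among them the inhibitor IkB-alpha (Nfkbia) and the ubiquitin-editing enzyme A20 (Tnfaip3), so the circuit feeds back on itself. IL-4 drives macrophages to an alternative state through STAT6.

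Library totals ran from 63429271 to 94942464 gene counts in 21 libraries, and from 172771 to 209368 in 3 shallow ones, which are WT LPS libraries 1 and 2 and KO LPS library 7. Values are counts per 1e6 counts (CPM) on edgeR's effective library sizes, and libraries are listed by label number, 5 to 8 in KO and 1 to 4 in WT. The scaling factor in these sizes was 0.968 in KO LPS library 7, against 0.784 to 0.852 in the deep KO LPS libraries. It was 0.926 and 0.951 in WT LPS libraries 1 and 2, against 0.864 and 0.860 in the deep ones. A larger factor gives a lower CPM, and its part in the values of shallow libraries was not tested. Where no read was counted, the true level may reach that of 3 counts, which is 0.0303 to 0.055 CPM in a deep library and 15.5 to 17.9 CPM in a shallow one, for counting error only. Ogt had 34.5 to 36.9 CPM in KO M0 libraries, against 47.3 to 52.4 in WT M0 libraries. In LPS it had 34.2 to 37.6 CPM in the deep KO libraries and 53.8 in the shallow one, against 55.0 and 57.2 in the deep WT libraries and 56.7 and 68.0 in the shallow ones, and in IL-4 31.9 to 34.8 CPM in KO libraries, against 49.2 to 58.2 in WT libraries. Gene totals do not show whether these reads fall in the deleted part. KO libraries 5 and 6 stood apart from 7 and 8: in M0, 28.9% of all tested genes were higher in both of 5 and 6 than in both of 7 and 8, and 30.7% lower. For the 34 members these counts were 20 and 4 in M0. In LPS they were 20 and 1, where 35.1% of all tested genes were higher and 13.3% lower, and in IL-4 15 and 6, where 28.6% were higher and 24.6% lower.

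The 8 macrophage markers were detected in every group, and markers of other cells also moved with genotype. Summed over 6 stromal markers (Col1a1, Col1a2, Col3a1, Lum, Dcn, Pdgfrb), KO libraries held 13777 to 18580 CPM in M0, against 9620 to 11269 in WT libraries. In LPS the sums were 15507 to 17678 CPM in KO libraries and 10676 to 13593 in WT libraries, and in IL-4 10349 to 13705 in KO libraries and 7017 to 7512 in WT libraries. The macrophage sum was 7778 to 9799 CPM in KO M0 libraries, against 12606 to 14086 in WT M0 libraries. Its range in LPS was 7936 to 9756 CPM in KO libraries and 14306 to 14873 in WT libraries, and in IL-4 6853 to 7388 CPM in KO libraries and 7845 to 8304 in WT libraries. The 5 endothelial markers summed to 21.7 to 58.6 CPM in KO M0 libraries, against 11.9 to 16.2 in WT M0 libraries. In LPS they summed to 74.0 to 114 CPM in KO libraries and 15.5 to 39.9 in WT libraries. In IL-4 they summed to 9.01 to 23.9 CPM in KO libraries and 6.38 to 9.09 in WT libraries. T and NK and B cell markers stayed under 0.3 CPM in sum in every deep library. The shallow libraries held no count of them, where the limit of 3 counts is 15.5 to 17.9 CPM. The 5 osteoclast markers, genes of the bone-resorbing macrophage relative, summed to 69.7 to 81.3 CPM in KO M0 libraries, against 97.6 to 129 in WT M0 libraries, and to 160 to 227 CPM in KO LPS libraries, against 267 to 356 in WT LPS libraries. In IL-4 their sums overlapped, at 90.6 to 116 CPM in KO libraries and 96.5 to 108 in WT libraries. Of these 5 genes, 4 were lower in KO in M0, 3 in LPS and 2 in IL-4, where 1 was higher. Of 6 tested neutrophil and precursor markers, 2 were higher in KO in M0 (Elane and Mpo). In LPS 1 was lower (Ngp), and in IL-4 1 was higher (Mpo). Their sums, from 9.14 to 59.8 CPM over all libraries, overlapped between the genotypes in each state. The 2 tested dendritic markers were not called between the genotypes in any state. In M0, 0 of the 8 macrophage markers were higher in KO and 3 lower. In LPS 3 were higher and 4 lower, and in IL-4 1 was higher and 1 lower. Lyz2 was lower in each state (log2 fold change -0.87, -1.17 and -0.46). Of all tested genes, 11.8% were higher and 10.5% lower in KO in M0. The shares were 16.2% and 14.6% in LPS, and 17.9% and 18.2% in IL-4. What part the cells of these marker lists have in the genotype differences of the members was not tested. In bulk RNA, fewer cells of a type and less RNA per cell cannot be told apart.

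Some members carry sequence that NF-kB dimers are known to bind, and stretches before the start site are shown for 6 of them. These 6 are a subunit, inhibitors and brakes of the circuit, each with such a site within 130 bases of the start. RefSeq windows of build GRCm38.p6 covered 29 of the 34 members. The kB consensus, searched on both strands in the 250 bases upstream of each listed start, matched in 11 of these 29 (37.9%), against 2225 of 27025 genes in the table (8.23%). By windows, which can be several per gene, the matches were 13 of 39 for members and 7.25% of all windows. The 130 bases upstream of the start follow, written 5′ to 3′ on the gene's strand, with every base inside a kB match in capitals.
Nfkbia promoter (GRCm38.p6, chr12:55492648-55492777, minus strand): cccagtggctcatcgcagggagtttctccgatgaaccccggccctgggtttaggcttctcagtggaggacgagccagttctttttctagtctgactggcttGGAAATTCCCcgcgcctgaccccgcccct
Nfkbie promoter (GRCm38.p6, chr17:45555570-45555699, plus strand): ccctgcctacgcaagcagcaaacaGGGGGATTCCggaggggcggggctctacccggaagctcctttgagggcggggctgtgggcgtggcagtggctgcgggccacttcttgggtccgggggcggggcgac
Rel promoter (GRCm38.p6, chr11:23770970-23771099, minus strand): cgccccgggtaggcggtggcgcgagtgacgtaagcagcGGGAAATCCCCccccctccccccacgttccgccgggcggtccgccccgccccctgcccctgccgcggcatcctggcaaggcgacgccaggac
Tnfaip3 promoter (GRCm38.p6, chr10:19015411-19015540, minus strand): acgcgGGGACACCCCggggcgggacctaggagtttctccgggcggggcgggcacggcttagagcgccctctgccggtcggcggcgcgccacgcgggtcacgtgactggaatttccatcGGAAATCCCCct
Tnip1 promoter (GRCm38.p6, chr11:54962941-54963070, minus strand): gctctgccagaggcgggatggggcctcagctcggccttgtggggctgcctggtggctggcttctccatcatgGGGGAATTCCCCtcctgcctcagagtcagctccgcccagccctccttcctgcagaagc
Tnip3 promoter (GRCm38.p6, chr6:65590268-65590397, plus strand): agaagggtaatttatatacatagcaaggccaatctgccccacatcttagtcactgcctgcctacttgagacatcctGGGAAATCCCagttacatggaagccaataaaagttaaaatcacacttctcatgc
The Nfkbia stretch holds a single match, which begins 29 bases before the start, and the Nfkbie stretch a single match that begins 106 bases before it. Tnfaip3 holds 2 separate matches, and in Rel, Tnip1, Tnip3 and the outer site of Tnfaip3 the match reads on both strands. Nfkb2, Nfkbid, Traf3, Cyld and Tnfaip2 also held a match. Those of Nfkb2, Traf3 and Tnfaip2 included a match within 130 bases of the start, and their stretches are not printed. A match is a description of letters and does not show binding.

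LPS raised the members in both genotypes, with Chuk the least firm of them. All 34 passed the test as higher in KO cells, where 31.2% of all tested genes were higher and 36.0% lower, and all 34 were higher in WT cells, where 29.4% of genes were higher and 28.3% lower. A change of at least 2-fold was reached by 28 members in KO cells and by 25 in WT cells. The median log2 fold change of the members was 2.30 in KO cells and 1.81 in WT cells, against -0.07 and -0.01 for all tested genes. The 4 LPS libraries lay above the 4 M0 libraries without overlap for 30 members in KO cells and for 29 in WT cells, where 19.2% and 15.4% of all genes did so. For Chuk the means were 39.8 ± 6.7 CPM in KO LPS and 38.7 ± 2.6 in KO M0 libraries, and 34.4 ± 10.7 CPM in WT LPS and 35.0 ± 1.4 in WT M0 libraries (SD, n = 4 each), so its call as higher in WT cells goes against the plain mean, which holds 2 shallow libraries; its 2 deep WT LPS libraries averaged 42.9 CPM. Of the marker genes given above, 2 of 6 stromal and 4 of 5 osteoclast markers were higher with LPS in KO cells, and 3 and 5 in WT cells, and 3 of 8 macrophage markers were higher and 3 lower in KO cells and 3 higher and 4 lower in WT cells. Their part in the responses of the members was not tested.

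**Figure D1:**
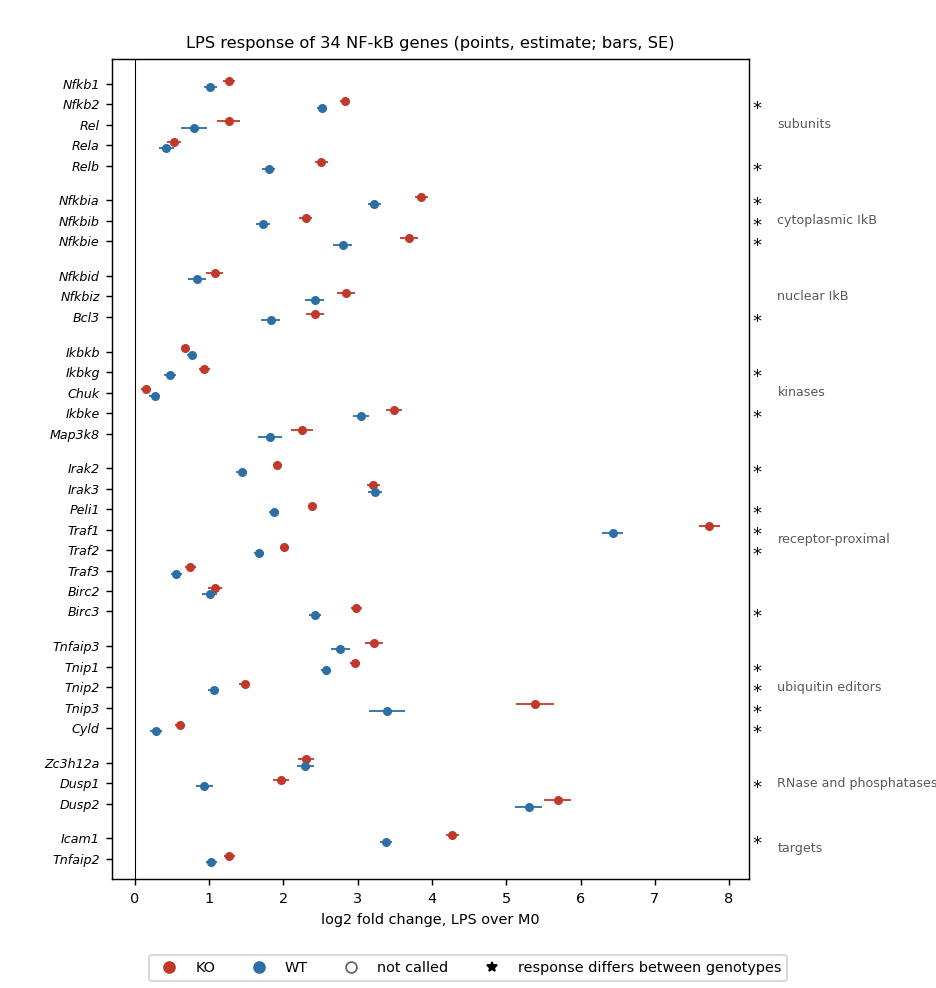
Log2 fold change of each of the 34 members after 12 hours of LPS over M0 in KO cells (red, upper point) and WT cells (blue, lower point), with SE bars and n = 4 libraries per group. All points lie right of 0, and stars mark the 19 members whose response passed the test of a difference between genotypes.

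Traf1, an adaptor bound to TNF-family receptors that itself is a known NF-kB target, changed most. It had 229, 222, 185 and 192 CPM in KO LPS libraries, against 1.19, 0.835, 1.07 and 0.885 CPM in KO M0 libraries, a log2 fold change of 7.73 ± 0.14 (SE, adjusted p = 1.77e-24). WT cells gave 124, 146, 150.1 and 167 CPM in LPS, against 2.42, 1.99, 1.46 and 1.38 CPM in M0 (6.43 ± 0.14, adjusted p = 4.68e-23). Every LPS library lay far above every M0 library in both genotypes. Birc3, which encodes the ubiquitin ligase cIAP2 that works with TRAF proteins, had 134, 142, 132 and 148 CPM in KO LPS libraries, against 18.5, 18.9, 16.6 and 17.4 CPM in KO M0 libraries (2.98 ± 0.073, adjusted p = 5.33e-22). In WT cells it had 72.2, 146, 115 and 115 CPM after LPS, against 22.9, 18.6, 22.2 and 21.2 CPM in M0 (2.43 ± 0.077, adjusted p = 1.38e-19). Its paralog Birc2 changed less, by 1.08 ± 0.093 in KO and 1.01 ± 0.10 in WT cells, and had 0 counts in the shallow KO LPS library 7. Of the other receptor-proximal genes, Irak3, the inhibitory IRAK family member also called IRAK-M, rose by 3.21 ± 0.09 in KO and 3.23 ± 0.094 in WT cells, and Traf3, which restrains the non-canonical pathway, by 0.75 ± 0.069 and 0.56 ± 0.077.

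Among the cytoplasmic inhibitors, Nfkbia rose strongly. KO LPS libraries held 340.1, 343, 293 and 295 CPM and KO M0 libraries 23.5, 23.9, 20.01 and 21.8 CPM (3.86 ± 0.086, adjusted p = 5.77e-23). WT LPS libraries held 299, 324, 307 and 338 CPM and WT M0 libraries 38.3, 35.6, 30.4 and 32.9 CPM (3.22 ± 0.087, adjusted p = 6.14e-21). The LPS values of both genotypes covered the same range, while the M0 values did not. Nfkbie (IkB-epsilon) rose by 3.69 ± 0.12 in KO and 2.800 ± 0.13 in WT cells, and Nfkbib (IkB-beta) by 2.301 ± 0.084 and 1.73 ± 0.09. The nuclear IkB genes rose as well, Nfkbiz (IkB-zeta, a coactivator of secondary response genes) by 2.84 ± 0.12 in KO and 2.42 ± 0.13 in WT cells, Bcl3 by 2.43 ± 0.12 and 1.83 ± 0.13, and Nfkbid (IkBNS) by 1.07 ± 0.11 and 0.84 ± 0.12.

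The subunits differed in how far they moved. Nfkb2, the precursor p100 of the non-canonical pathway, had 467, 443, 437 and 444 CPM in KO LPS libraries, against 63.4, 67.1, 60.4 and 61.9 CPM in KO M0 libraries (2.83 ± 0.07, adjusted p = 5.91e-22). For the WT libraries the values were 397, 471, 468 and 496 CPM in LPS and 82.7, 76.6, 92.5 and 75.04 CPM in M0 (2.52 ± 0.072, adjusted p = 2.02e-20). Nfkb2 shares up to 299 exon bases with Psd on the opposite strand, and no source used here says whether counting used strand. Relb rose by 2.51 ± 0.086 in KO and 1.801 ± 0.09 in WT cells, Nfkb1 (p105) by 1.27 ± 0.078 and 1.02 ± 0.083, and Rela (p65) by 0.53 ± 0.092 and 0.42 ± 0.10. Rel (c-Rel) rose by 1.26 ± 0.15 in KO and 0.801 ± 0.17 in WT cells, with 0 counts in KO LPS library 7 and 1 count in each of WT LPS libraries 1 and 2, all under the limit of 3 counts.

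The brakes and targets followed. Tnip1 (ABIN1, a partner of A20) had 438, 437, 365 and 387 CPM in KO LPS libraries, against 53.03, 50.8, 53.5 and 55.3 CPM in KO M0 libraries (2.97 ± 0.069, adjusted p = 1.66e-22). With WT cells it had 268, 246, 333 and 353 CPM in LPS, against 58.3, 54.4, 52.95 and 52.5 CPM in M0 (2.57 ± 0.071, adjusted p = 1.07e-20). No LPS library of either genotype came near an M0 library. Icam1, an adhesion molecule and a standard NF-kB target, had 752, 743, 634 and 713 CPM in KO LPS libraries, against 39.04, 40.3, 34.6 and 35.2 CPM in KO M0 libraries (4.28 ± 0.081, adjusted p = 2.87e-24). In WT libraries Icam1 had 500.3, 497, 587 and 619 CPM after LPS, against 63.1, 51.6, 53.5 and 50.7 CPM in M0 (3.39 ± 0.08, adjusted p = 4.75e-22). Dusp2, a nuclear MAP kinase phosphatase, rose by 5.69 ± 0.18 in KO and 5.300 ± 0.19 in WT cells, Tnfaip3 by 3.22 ± 0.12 and 2.77 ± 0.12, and Zc3h12a, the RNase Regnase-1 that degrades cytokine mRNAs, by 2.31 ± 0.10 and 2.29 ± 0.11.

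Chuk moved least of the core IKK kinases. Chuk (IKK-alpha) changed by 0.15 ± 0.064 in KO (adjusted p = 0.039) and 0.27 ± 0.071 in WT cells, Ikbkb (IKK-beta) by 0.68 ± 0.054 and 0.77 ± 0.06, and Ikbkg (NEMO) by 0.93 ± 0.075 and 0.48 ± 0.083. Ikbke, the inducible IKK-epsilon, rose by 3.49 ± 0.10 in KO and 3.04 ± 0.11 in WT cells, and Map3k8, the kinase Tpl2 that leads to ERK, by 2.26 ± 0.15 and 1.83 ± 0.16. The call of Chuk in KO cells ended when any single KO M0 library was left out (adjusted p up to 0.914), and its direction turned without KO M0 library 5 or 6 (-0.018 and -0.057). In WT cells the call of Chuk ended without any single WT M0 library (adjusted p up to 0.188) and that of Cyld without WT M0 library 1, 2 or 3 (up to 0.207).

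Levels per length of exon put the members in another order after LPS. Before stimulation Rela led the subunits, at 40.7 ± 1.26 CPM per kb in KO M0 and 45.5 ± 1.62 in WT M0 libraries (SD, n = 4). It was followed by Nfkb1 at 22.01 ± 2.24 CPM per kb in KO and 26.8 ± 0.606 in WT, Nfkb2 at 14.98 ± 0.684 and 19.4 ± 1.88, Relb at 11.2 ± 1.23 and 16.6 ± 1.23, and Rel at 0.844 ± 0.0777 and 0.774 ± 0.205. After LPS Nfkb2 led, at 106 ± 3.21 CPM per kb in KO and 109 ± 10.1 in WT libraries, and the levels of Rela (57.02 ± 10.01 in KO, 60.7 ± 6.94 in WT), Relb (59.8 ± 11.4 in KO, 55.1 ± 8.85 in WT) and Nfkb1 (50.2 ± 7.69 in KO, 49.99 ± 10.98 in WT) lay within each other's spread. Icam1 had the highest level per length of all members in LPS, 280.3 ± 21.2 CPM per kb in KO and 217 ± 24.3 in WT libraries, and Nfkbia came next with 201 ± 17.5 and 201 ± 11.2. The exon lengths are those of the GENCODE M21 annotation on GRCm38.

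In unstimulated cells many members were lower in KO than in WT macrophages. Of the 34 members, 16 passed the test as lower and 0 as higher, where 10.5% of all tested genes were lower and 11.8% higher. At an unadjusted p under 0.05 edgeR had 1 member higher, Chuk, and DESeq2 called 0 higher. By role these were 3 of 5 subunits, 2 of 3 cytoplasmic inhibitors, 2 of 3 nuclear IkB genes, 2 of 5 kinases, 3 of 8 receptor-proximal genes, 2 of 5 ubiquitin editors, 1 of 3 RNase and phosphatase genes and 1 of 2 further targets. The median log2 fold change was -0.16 over the members and 0.02 over all tested genes. Values of the 2 genotypes did not overlap for 20 members, with 19 below WT and 1 above, where 13.6% and 13.5% of all genes lay so.

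**Figure D2:**
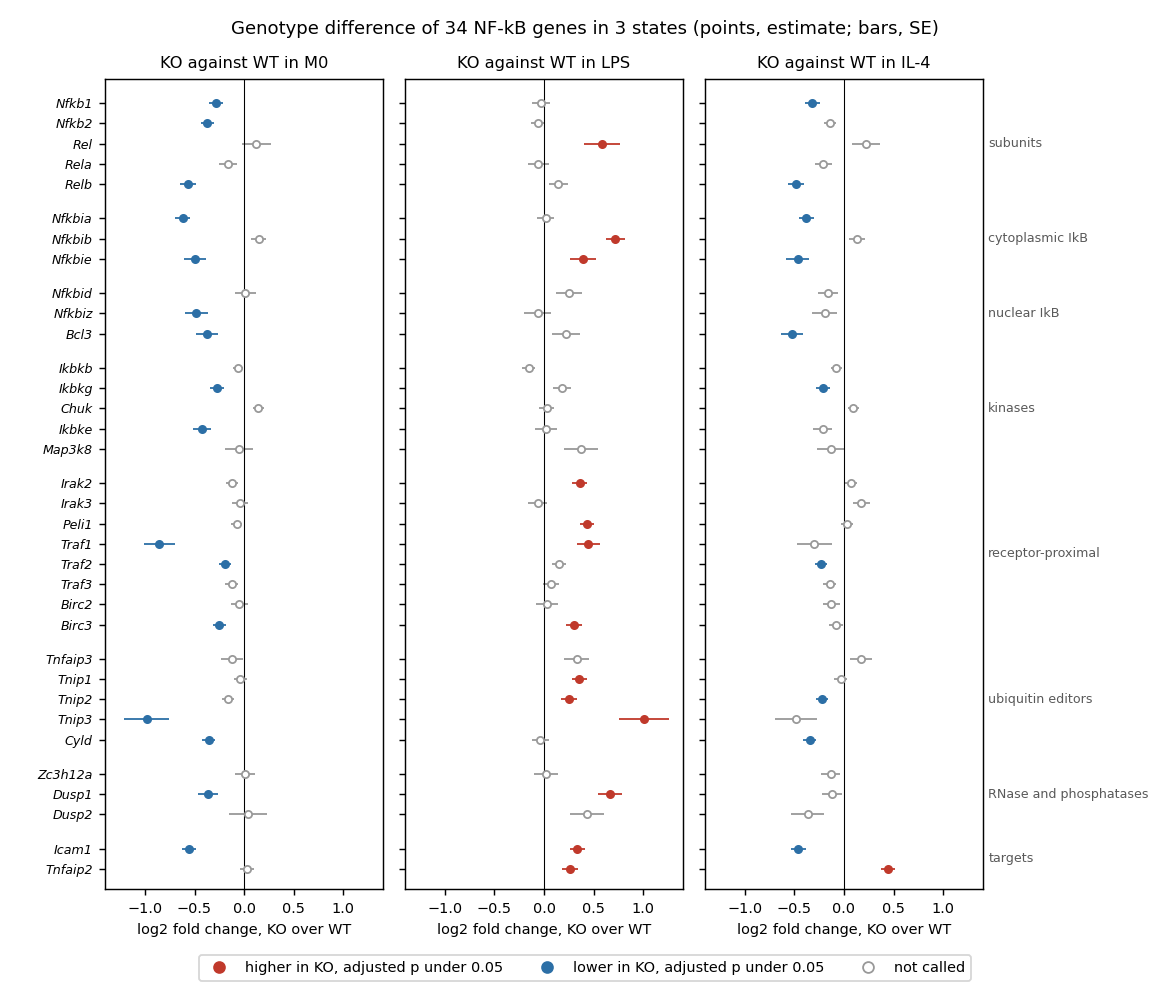
Log2 fold change of KO over WT for each of the 34 members in M0, LPS and IL-4, ordered by role, with SE bars and n = 4 libraries per group. Called members are blue (lower in KO) in M0, 16 of them, red (higher in KO) in LPS, 13 of them, and mostly blue in IL-4, with 10 lower and 1 higher.

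Nfkbia had 23.5, 23.9, 20.01 and 21.8 CPM in KO M0 libraries, against 38.3, 35.6, 30.4 and 32.9 CPM in WT M0 libraries. Each KO library lay below each WT library, and the log2 fold change was -0.62 ± 0.077 (adjusted p = 2.3e-06). For Relb, whose protein dimerises with the products of Nfkb2, the values were 27.1, 26.9, 21.7 and 23.2 CPM in KO M0 libraries, against 39.6, 36.6, 37.2 and 33.02 CPM in WT M0 libraries (-0.57 ± 0.08, adjusted p = 1.36e-05). Nfkb2 itself had the M0 values given above, with each KO library below each WT library (-0.37 ± 0.064, adjusted p = 0.000175). Icam1 likewise did not overlap between the genotypes in M0 (-0.55 ± 0.071, adjusted p = 3.97e-06), nor did Traf1, whose level was low in both (-0.85 ± 0.15, adjusted p = 0.000263). The third called subunit was Nfkb1, with 97.8, 99.6, 84.4 and 81.4 CPM in KO M0 libraries, against 112, 107, 110.5 and 112 CPM in WT M0 libraries (-0.28 ± 0.073, adjusted p = 0.00683).

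Rela and Rel did not pass the test in M0. Rela had 115, 111, 107 and 109 CPM in KO M0 libraries, against 125, 127, 117 and 126 CPM in WT M0 libraries, so the groups did not overlap although the change of -0.16 ± 0.086 missed the threshold (adjusted p = 0.185, 95% interval -0.34 to 0.02). For Rel the libraries gave 6.42, 6.804, 6.52 and 5.47 CPM in KO M0 libraries, against 7.37, 3.695, 5.87 and 6.19 CPM in WT M0 libraries (0.12 ± 0.14, 95% interval -0.18 to 0.43), and the KO range lay inside the WT range. Nfkbib was the member with all KO libraries above WT, at 44.3, 43.2, 39.7 and 41.7 CPM in KO M0 libraries, against 38.2, 39.7, 39.5 and 35.5 CPM in WT M0 libraries, without passing the test (0.14 ± 0.078, adjusted p = 0.192). Tnfaip3 overlapped, with 24.6, 26.8, 32.1 and 35.3 CPM in KO M0 libraries, against 34.6, 30.2, 31.95 and 32.6 CPM in WT M0 libraries (-0.12 ± 0.11, 95% interval -0.35 to 0.11).

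The other called members in M0 were Nfkbie (-0.498 ± 0.11), Nfkbiz (-0.48 ± 0.12), Bcl3 (-0.37 ± 0.11), Ikbkg (-0.28 ± 0.07), Ikbke (-0.42 ± 0.094), Traf2 (-0.19 ± 0.059), Birc3 (-0.25 ± 0.068), Tnip3 (-0.98 ± 0.23), the deubiquitinase gene Cyld (-0.36 ± 0.065) and Dusp1 (-0.36 ± 0.10), with adjusted p from 0.000297 for Cyld to 0.02 for Traf2. The 14 members not called beside Rela, Rel, Nfkbib and Tnfaip3 were Nfkbid, Ikbkb, Chuk, Map3k8, Irak2, Irak3, Peli1, Traf3, Birc2, Tnip1, Tnip2, Zc3h12a, Dusp2 and Tnfaip2. Their log2 fold changes ran from -0.16 for Tnip2 to 0.14 for Chuk. The call of Bcl3 ended without WT M0 library 1 or KO M0 library 7 (adjusted p up to 0.0531). When libraries 5 and 6, 7 and 8, 1 and 2, and 3 and 4 of each group were summed, so that each group held 2 values, 5 of the 16 calls remained, namely Nfkb2, Relb, Nfkbia, Traf1 and Icam1. The stromal and endothelial marker sums, higher in KO libraries, and the macrophage and osteoclast sums, lower in KO libraries, moved with these differences, and their part was not tested.

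After LPS the called genotype differences ran the other way. Of the 34 members, 13 passed the test as higher in KO and 0 as lower, where 16.2% of all tested genes were higher and 14.6% lower. At an unadjusted p under 0.05 edgeR had 1 member lower, Ikbkb, and DESeq2 called 0 lower. The higher members were 1 of 5 subunits, 2 of 3 cytoplasmic inhibitors, 4 of 8 receptor-proximal genes, 3 of 5 ubiquitin editors, 1 of 3 RNase and phosphatase genes and both further targets. Of the nuclear IkB genes and kinases, edgeR had Map3k8 higher and Ikbkb lower at an unadjusted p under 0.05, and the adjusted test called 0. The median was 0.24 over the members and 0.01 over all tested genes. For 7 members all KO libraries lay above all WT libraries, and for 0 below, where 8.04% and 4.83% of all genes lay so.

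**Figure D3:**
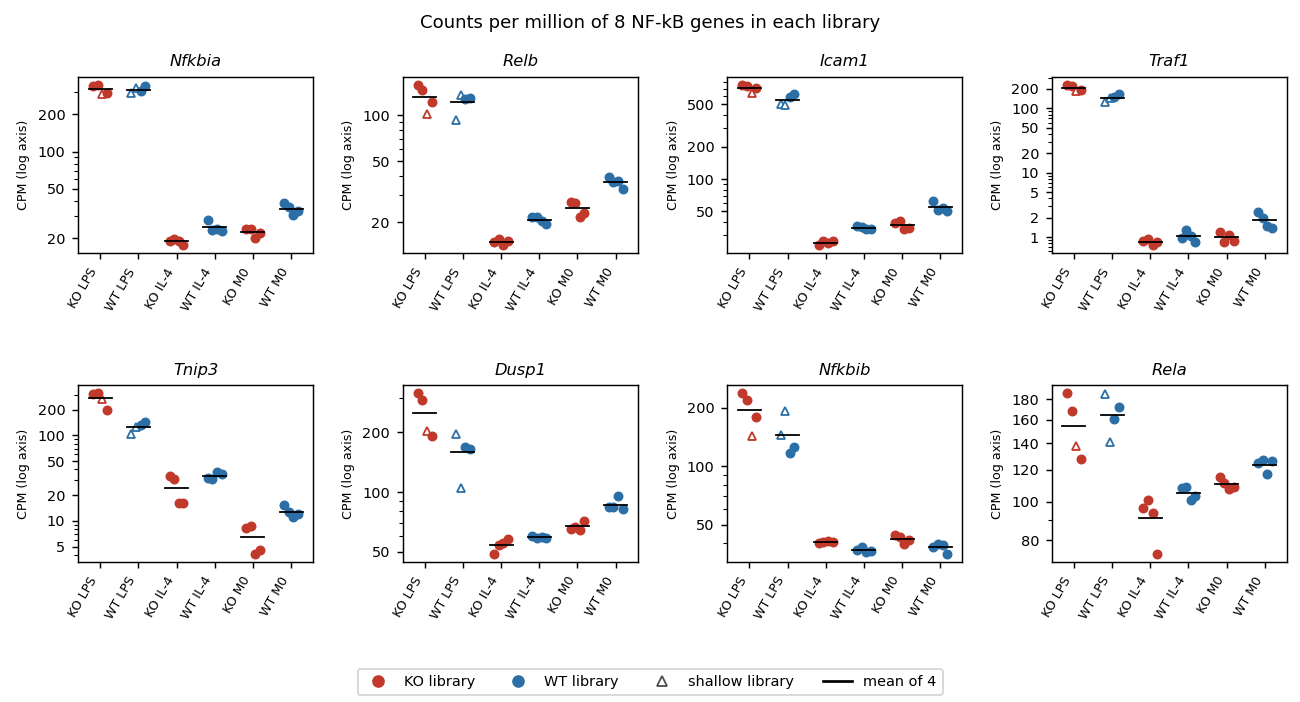
CPM of 8 members in each of the 24 libraries on log axes, with KO left of WT in each state, open triangles for the 3 shallow libraries and a line at the mean of 4. For Nfkbia, Relb, Icam1 and Traf1 the KO M0 libraries lie below the WT M0 libraries, while in LPS the KO libraries of Icam1, Traf1 and Tnip3 lie above the WT libraries and those of Nfkbia and Rela overlap them.

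Nfkbib and Nfkbie were the cytoplasmic inhibitors that differed after LPS. Nfkbib had 237, 219.6, 144 and 178 CPM in KO LPS libraries, against 144, 194, 117 and 125 CPM in WT LPS libraries, a log2 fold change of 0.72 ± 0.097 (adjusted p = 4.27e-06). The shallow KO library 7 and the shallow WT library 2 brought the groups to overlap, while the 3 deep KO libraries lay above both deep WT libraries. Nfkbie had 197, 194, 132 and 145 CPM in KO LPS libraries, against 67.05, 136, 140.4 and 138 CPM in WT LPS libraries (0.39 ± 0.13, adjusted p = 0.025). Nfkbia gave 0.02 ± 0.088 (95% interval -0.17 to 0.200) on the overlapping values given above.

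Upstream, Peli1, a ubiquitin ligase of the IRAK step, had 139, 141, 167 and 123 CPM in KO LPS libraries, against 87.7, 68.001, 98.3 and 106 CPM in WT LPS libraries (0.44 ± 0.071, adjusted p = 4.52e-05). Irak2, the kinase that sustains TLR signalling, had 159, 160.0, 161 and 128 CPM in KO LPS libraries, against 103, 88.9, 111 and 126 CPM in WT LPS libraries (0.36 ± 0.075, adjusted p = 0.000695). Both genes kept all KO libraries above all WT libraries. Traf1 (0.45 ± 0.12) and Birc3 (0.304 ± 0.081) were also called, with adjusted p of 0.00511 and 0.0057.

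Several brakes stood higher in KO cells after LPS. Dusp1, a phosphatase that switches off p38 and JNK, had 315, 290.4, 203 and 192 CPM in KO LPS libraries, against 196, 105, 169 and 165 CPM in WT LPS libraries (0.67 ± 0.12, adjusted p = 0.000186), with the lowest KO library just below the highest WT library. Tnip1 did not overlap between the genotypes (0.36 ± 0.073, adjusted p = 0.000566). Tnip3, the most changed of the ABIN genes, had 307, 309, 269 and 199 CPM in KO LPS libraries, against 103, 126, 132 and 143 CPM in WT LPS libraries (1.01 ± 0.25, adjusted p = 0.00361), and its lowest KO library was still above its highest WT library. Tnip2 (0.25 ± 0.08), Icam1 (0.34 ± 0.079) and Tnfaip2 (0.26 ± 0.083) completed the called genes outside the subunits. Tnfaip3 had 293, 308, 173 and 249 CPM in KO LPS libraries, against 217, 204, 209.6 and 235 CPM in WT LPS libraries and did not pass (0.33 ± 0.13, adjusted p = 0.0537). Here the shallow KO library 7 lay below all WT libraries and the other 3 KO libraries above them.

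Rel was the called subunit, at 14.4, 15.96, 0 and 15.5 CPM in KO LPS libraries, against 5.16, 5.23, 9.36 and 11.1 CPM in WT LPS libraries (0.59 ± 0.18, adjusted p = 0.0165). Its 3 shallow libraries were under the limit of 3 counts, so the comparison rests on the deep libraries, in which the 3 KO values lay above both WT values. Rela had 186, 168, 138 and 127 CPM in KO LPS libraries, against 186, 141, 160.5 and 172 CPM in WT LPS libraries (-0.06 ± 0.11, 95% interval -0.28 to 0.17). Relb had 157, 147, 102 and 122 CPM in KO LPS libraries, against 92.8, 136, 129 and 129.7 CPM in WT LPS libraries (0.14 ± 0.096, 95% interval -0.06 to 0.35). The genotypes overlapped for both, as they did for Nfkb1 with 229, 228, 161 and 209 CPM in KO LPS libraries, against 139, 219.7, 227 and 239 CPM in WT LPS libraries (-0.03 ± 0.087, 95% interval -0.22 to 0.15). Nfkb2 gave -0.06 ± 0.073. The remaining uncalled members ranged from -0.16 for Ikbkb to 0.43 for Dusp2.

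Leaving out KO LPS library 8 alone gave 21 called members in place of 13, of which 20 were higher and 1, Ikbkb, lower. Without libraries 7 and 8 of every KO group it was 22, of which 21 were higher and 1, again Ikbkb, lower. Without KO libraries 5 and 6 it was 8, of which 7 were higher and 1, Rela, lower. In that setting the KO LPS group held library 8 and the shallow library 7. Without WT LPS library 3 the calls of Rel, Nfkbie, Tnip2 and Tnfaip2 ended (adjusted p up to 0.134 for Rel). Those of Nfkbie and Tnip2 also ended without WT LPS library 4, and those of Nfkbie and Tnfaip2 without KO LPS library 5 or 6. With pairs of libraries summed, 6 calls remained, those of Rel, Nfkbib, Peli1, Birc3, Tnip1 and Icam1. There the sum of WT LPS libraries 1 and 2 was made of shallow libraries only. Without the 3 shallow libraries 14 were called. The stromal, endothelial, macrophage and osteoclast marker sums given above moved with genotype here too, and their part was not tested.

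The LPS response itself was larger in KO cells for 19 members and smaller for 0, by the test of the difference between responses. Among all tested genes the KO response minus the WT response was called positive for 6.62% and negative for 4.79%. Every member rose with LPS in both genotypes, so for members a positive difference is a larger rise. For a gene that fell, a positive difference is a smaller fall. A smaller response was found for 0 members at an unadjusted edgeR p under 0.05 and for 0 by DESeq2. The median difference was 0.43 over the members and -0.02 over all tested genes. It is the genotype difference in LPS minus that in M0 and shares the libraries of both comparisons. All 3 cytoplasmic inhibitors were called, with 2 of 5 subunits, 1 of 3 nuclear IkB genes, 2 of 5 kinases, 5 of 8 receptor-proximal genes, 4 of 5 ubiquitin editors, 1 of 3 RNase and phosphatase genes and 1 of 2 further targets.

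Icam1 had the smallest adjusted p. Its response was 4.28 in KO and 3.39 in WT cells, a difference of 0.89 ± 0.11 (adjusted p = 7.36e-06). Traf1 differed by 1.302 ± 0.19 (adjusted p = 8.72e-05) and Dusp1, with M0 values of 65.2, 66.9, 64.6 and 71.6 CPM in KO and 83.6, 83.6, 95.3 and 82.1 CPM in WT libraries, by 1.03 ± 0.16 (adjusted p = 0.000137). These 3 genes were lower in KO cells in M0 and higher in KO cells in LPS, each past the test. Tnip3 showed the same order, with 8.31, 8.64, 4.15 and 4.56 CPM in KO M0 libraries, against 15.5, 12.6, 11.2 and 11.9 CPM in WT M0 libraries, and a difference in response of 1.99 ± 0.34 (adjusted p = 0.000363). Birc3 (0.55 ± 0.11) and Nfkbie (0.89 ± 0.17) completed the 6 members called in opposite directions in the 2 states. How many of all tested genes switched direction in this way was not counted.

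A second set was called lower in M0 and was not called in LPS. Relb responded by 2.51 in KO and 1.801 in WT cells, a difference of 0.71 ± 0.13 (adjusted p = 0.000495). Nfkbia differed by 0.64 ± 0.12 (adjusted p = 0.000735), Bcl3 by 0.596 ± 0.18, Ikbkg by 0.46 ± 0.11, Ikbke by 0.44 ± 0.14, Traf2 by 0.34 ± 0.093, Nfkb2 by 0.31 ± 0.098 and Cyld by 0.32 ± 0.11. The third set was called in LPS but not in M0, and its differences in response were 0.57 ± 0.12 for Nfkbib, 0.51 ± 0.092 for Peli1, 0.48 ± 0.097 for Irak2, 0.39 ± 0.097 for Tnip1 and 0.41 ± 0.10 for Tnip2. The 15 members not called ran from -0.12 for Chuk to 0.46 for Rel, and Zc3h12a responded most alike in value, with a difference of 0.01 ± 0.15 (95% interval -0.31 to 0.33).

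With pairs of libraries summed, 1 of the 19 differences in response was called, that of Icam1. The calls of Nfkb2, Bcl3, Ikbke and Cyld ended in 7, 8, 11 and 11 of the 16 cases in which a single library was left out, WT M0 library 1, KO M0 libraries 7 and 8 and WT LPS library 3 among them for all 4 genes, with adjusted p up to 0.132 for Nfkb2, 0.0864 for Bcl3, 0.117 for Ikbke and 0.153 for Cyld.

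IL-4 moved members in both directions and much less than LPS. In KO cells 8 members were higher and 14 lower, where 26.0% of all tested genes were higher and 25.2% lower. In WT cells 7 were higher and 15 lower, where 30.9% of genes were higher and 29.3% lower. The shares of members that were higher, 23.5% in KO and 20.6% in WT cells, were near or below those of all genes, and the shares that were lower, 41.2% in KO and 44.1% in WT cells, above them. The same 7 members were higher in both genotypes (Nfkb1, Rel, Chuk, Tnip2, Tnip3, Zc3h12a and Dusp2) and the same 14 were lower in both (Nfkb2, Rela, Relb, Nfkbia, Nfkbie, Nfkbiz, Irak2, Irak3, Peli1, Birc3, Tnip1, Dusp1, Icam1 and Tnfaip2). Markers of cell types moved with IL-4 too. All 6 stromal markers were lower with IL-4 in both genotypes (median log2 fold change -0.70 in KO and -0.82 in WT cells), as were 4 of 5 endothelial and 4 of 8 macrophage markers in KO cells and 2 and 5 in WT cells. Of the 5 osteoclast markers 3 were higher in KO cells, and 3 were higher and 2 lower in WT cells. The part of these cells in the IL-4 responses of the members was not tested.

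**Figure D4:**
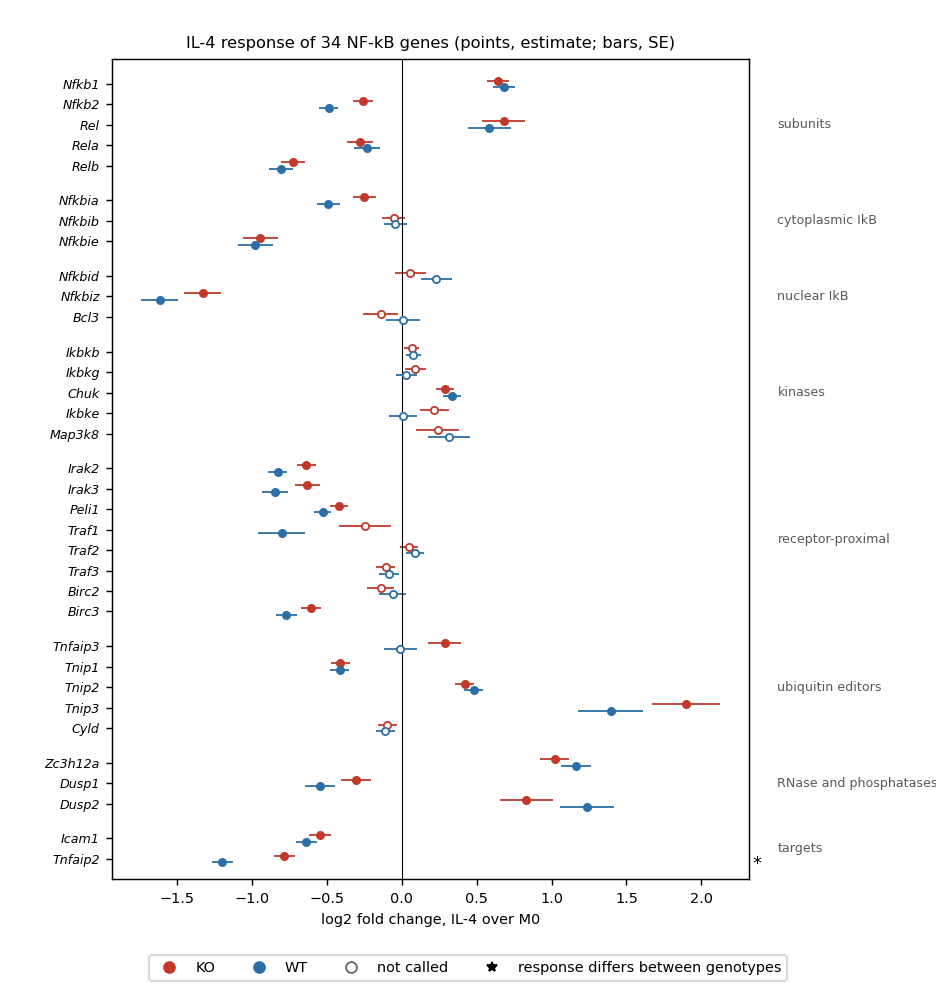
Log2 fold change of each of the 34 members after 12 hours of IL-4 over M0 in KO cells (red, upper point) and WT cells (blue, lower point), with SE bars and n = 4 libraries per group. Open points did not pass the test, and the star marks Tnfaip2, the member whose response passed the test of a difference between genotypes.

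The subunits split. Nfkb1 had 145, 145, 144 and 134 CPM in KO IL-4 libraries, against its M0 values of 97.8, 99.6, 84.4 and 81.4 CPM (0.64 ± 0.074, adjusted p = 6.29e-08), and 179.5, 175, 177 and 177 CPM in WT IL-4 libraries, against 112, 107, 110.5 and 112 CPM in WT M0 libraries (0.68 ± 0.073). Relb fell, to 14.96, 15.6, 14.2 and 15.1 CPM in KO IL-4 libraries (-0.73 ± 0.082, adjusted p = 4.75e-08) and 21.7, 21.8, 20.6 and 19.5 CPM in WT IL-4 libraries (-0.81 ± 0.081, adjusted p = 3.72e-09). In both genotypes each IL-4 library lay beyond all M0 libraries for these 2 genes. Nfkb2 fell, with changes of -0.26 ± 0.065 in KO and -0.49 ± 0.065 in WT cells, as did Rela with -0.28 ± 0.087 and -0.23 ± 0.086, while Rel rose by 0.68 ± 0.14 in KO and 0.58 ± 0.14 in WT cells.

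Nfkbiz had 3.599, 4.16, 5.62 and 4.14 CPM in KO IL-4 libraries, against 12.2, 11.8, 9.51 and 10.5 CPM in KO M0 libraries (-1.33 ± 0.12, adjusted p = 1.68e-09). WT values were 5.57, 5.59, 4.58 and 4.35 CPM in IL-4 and 17.5, 14.03, 14.1 and 16.01 CPM in M0 (-1.62 ± 0.12, adjusted p = 2.4e-11), so this nuclear IkB gene fell without overlap in both genotypes. Irak2 fell to 24.5, 25.8, 26.2 and 24.9 CPM in KO IL-4 libraries, against 40.3, 37.5, 38.9 and 41.02 CPM in KO M0 libraries (-0.64 ± 0.062, adjusted p = 4.07e-09). It fell to 24.1, 24.3, 24.5 and 23.7 CPM in WT IL-4 libraries, against 43.8, 43.9, 41.5 and 42.4 CPM in WT M0 libraries (-0.83 ± 0.062, adjusted p = 2.2e-11). The IL-4 libraries of both genotypes sat close together and far below M0. Birc3 fell, with changes of -0.61 ± 0.069 in KO and -0.77 ± 0.069 in WT cells, with 11.98, 11.9, 11.2 and 11.9 CPM in KO IL-4 and 13.4, 11.7, 12.5 and 12.2 CPM in WT IL-4 libraries.

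The risers included brakes. Zc3h12a had 28.5, 32.3, 29.1 and 26.4 CPM in KO IL-4 libraries, against 16.3, 14.3, 12.8 and 13.9 CPM in KO M0 libraries (1.02 ± 0.097, adjusted p = 2.75e-09), and 32.8, 29.7, 33.8 and 31.3 CPM in WT IL-4 libraries, against 16.1, 13.3, 14.2 and 13.4 CPM in WT M0 libraries (1.16 ± 0.098, adjusted p = 1.62e-10). Tnip3 rose by 1.898 ± 0.23 in KO and 1.396 ± 0.22 in WT cells, and Dusp2 by 0.83 ± 0.18 and 1.24 ± 0.18. In KO IL-4 libraries Tnip3 had 33.2, 31.3, 16.04 and 16.04 CPM, so libraries 5 and 6 held about as much as the WT libraries, which had 31.6, 31.2, 36.9 and 35.1 CPM, and libraries 7 and 8 less. Tnfaip3 was called higher in KO cells (0.29 ± 0.11, adjusted p = 0.0309) and not in WT cells (-0.01 ± 0.11), and the difference between these responses did not pass its own test (0.297 ± 0.15, adjusted p = 0.397). That call ended without KO M0 library 5 or 6 or KO IL-4 library 7 or 8 (adjusted p up to 0.32). Traf1 was called lower in WT cells (-0.803 ± 0.16) and not in KO cells (-0.25 ± 0.17), again without a called difference (0.56 ± 0.24, adjusted p = 0.268). The 11 members called in neither genotype were Nfkbib, Nfkbid, Bcl3, Ikbkb, Ikbkg, Ikbke, Map3k8, Traf2, Traf3, Birc2 and Cyld.

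Tnfaip2, a TNF-induced gene, was the 1 member whose IL-4 response differed between genotypes. The KO response minus the WT response was called positive for 0.470% of all tested genes and negative for 0.667%. A positive difference can be a larger rise or a smaller fall in KO cells, and for Tnfaip2 it was a smaller fall. Tnfaip2 had 85.8, 85.7, 83.1 and 82.4 CPM in KO IL-4 libraries, against 157, 150.4, 136 and 137 CPM in KO M0 libraries (-0.78 ± 0.071, adjusted p = 9.82e-10). In WT cells it had 64.7, 60.1, 63.9 and 59.3 CPM in IL-4, against 161, 138, 133 and 137 CPM in M0 (-1.199 ± 0.071, adjusted p = 2.25e-13). The M0 values overlapped and the IL-4 values did not, all KO libraries lying above all WT libraries. The difference in response was 0.42 ± 0.1 (adjusted p = 0.0408), and it lost its call without WT M0 library 1, KO M0 library 7 or 8, or WT IL-4 library 2 or 4 (adjusted p up to 0.067), and with pairs of libraries summed.

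Between the genotypes in IL-4, 10 members were lower in KO and 1 higher, where 18.2% of all tested genes were lower and 17.9% higher. The called members were 2 of 5 subunits, 2 of 3 cytoplasmic inhibitors, 1 of 3 nuclear IkB genes, 1 of 5 kinases, 1 of 8 receptor-proximal genes, 2 of 5 ubiquitin editors and both further targets. Of the RNase and phosphatase genes, Dusp2 was lower at an unadjusted edgeR p under 0.05, and the adjusted test called 0. The median was -0.15 over the members and 0.01 over all tested genes. Values did not overlap for 14 members, 12 below WT and 2 above, where 19.8% and 17.3% of all genes lay so.

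Icam1 had 24.1, 26.3, 25.5 and 26.3 CPM in KO IL-4 libraries, against 36.3, 35.5, 34.5 and 34.3 CPM in WT IL-4 libraries (-0.46 ± 0.072, adjusted p = 2.61e-05), and Tnfaip2 was the higher one (0.44 ± 0.071, adjusted p = 3.46e-05). Relb (-0.48 ± 0.082, adjusted p = 6.71e-05) and Nfkb1 (-0.32 ± 0.073, adjusted p = 0.0014) were lower, without overlap in the values above. Cyld, which trims ubiquitin chains from pathway proteins, had 30.8, 30.1, 29.4 and 28.5 CPM in KO IL-4 libraries, against 37.99, 36.03, 37.9 and 38.9 CPM in WT IL-4 libraries (-0.34 ± 0.065, adjusted p = 0.000237). For Nfkbia the libraries gave 18.8, 19.7, 19.1 and 17.4 CPM in KO IL-4 libraries, against 28.1, 23.004, 23.8 and 22.7 CPM in WT IL-4 libraries (-0.38 ± 0.077, adjusted p = 0.000489). KO stood below WT in every library for both genes. The other lower members were Bcl3 (-0.52 ± 0.11), Nfkbie (-0.47 ± 0.12), Traf2 (-0.23 ± 0.059), Tnip2 (-0.22 ± 0.064) and Ikbkg (-0.22 ± 0.07).

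Rela had 96.4, 101, 93.5 and 74.1 CPM in KO IL-4 libraries, against 108, 108, 101 and 103 CPM in WT IL-4 libraries and just missed the threshold (-0.21 ± 0.087, adjusted p = 0.0635), with no overlap. Nfkb2 had 48.01, 53.6, 52.4 and 57.4 CPM in KO IL-4 libraries, against 58.9, 60.2, 58.3 and 55.7 CPM in WT IL-4 libraries (-0.14 ± 0.065, adjusted p = 0.091). Rel had 11.2, 10.9, 8.97 and 9.33 CPM in KO IL-4 libraries, against 9.06, 7.27, 9.78 and 8.59 CPM in WT IL-4 libraries (0.22 ± 0.14). In both of these the ranges overlapped. Nfkbib had 40.3, 40.6, 41.1 and 40.7 CPM in KO IL-4 libraries, against 37.2, 38.5, 36.05 and 36.6 CPM in WT IL-4 libraries (0.13 ± 0.078, adjusted p = 0.192), and Tnfaip3 had 31.5, 30.95, 44.3 and 37.98 CPM in KO IL-4 libraries, against 32.9, 30.5, 33.9 and 31.1 CPM in WT IL-4 libraries (0.17 ± 0.11, adjusted p = 0.224). All KO libraries lay above all WT libraries for Nfkbib, and the genotypes overlapped for Tnfaip3. Without KO libraries 5 and 6 the count of called members was 19, 2 higher and 17 lower, and with pairs of libraries summed it was 4, those of Relb, Nfkbia, Icam1 and Tnfaip2. Stromal marker sums were higher and macrophage sums lower in KO libraries in this state also. By gene, 1 of 8 macrophage markers was lower (Lyz2) and 1 higher (Fcgr1). The part of these cells was not tested.

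Over the 3 states, 7 members (Nfkb1, Relb, Nfkbia, Bcl3, Ikbkg, Traf2 and Cyld) were called lower in KO in M0 and IL-4 and not called in LPS. Nfkbie and Icam1 were called lower in M0 and IL-4 and higher in LPS, and Traf1, Birc3, Tnip3 and Dusp1 lower in M0 and higher in LPS. Rel, Nfkbib, Irak2, Peli1 and Tnip1 were called, as higher, in LPS alone, and 11 members (Rela, Nfkbid, Ikbkb, Chuk, Map3k8, Irak3, Traf3, Birc2, Tnfaip3, Zc3h12a and Dusp2) in none of the 3 states. Nfkb2, Nfkbiz and Ikbke were called, as lower, in M0 alone, Tnip2 was higher in LPS and lower in IL-4, and Tnfaip2 was higher in LPS and IL-4. The shares of all tested genes with these patterns were not counted, so the patterns cannot be set against them.

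Other genes of the pathway were counted from lists. Of all tested genes, 11.8% were higher and 10.5% lower in KO in M0. These shares were 16.2% and 14.6% in LPS, and 17.9% and 18.2% in IL-4. Several of the list counts here and in the next paragraph lay near them. Of 19 genes between TLR4 and the kinase TAK1, 2 were higher and 4 lower in KO M0 cells, 6 higher and 3 lower in KO LPS cells, and 3 higher and 2 lower in KO IL-4 cells, each relative to WT. Irak4, the kinase at the start of the IRAK chain, was lower in M0 (-0.36 ± 0.066, adjusted p = 0.000263) and IL-4 (-0.25 ± 0.066), and Ube2n, the ubiquitin-conjugating enzyme Ubc13, was higher in LPS (0.31 ± 0.055, adjusted p = 0.000116). The 3 called differences in their LPS response, KO minus WT, were negative, those of Tab1 (-0.34 ± 0.092), Irak1 (-0.27 ± 0.088) and Map3k7, which encodes TAK1 (-0.31 ± 0.10). Whether these 3 genes rose or fell with LPS is not given here, so the sign does not say which response was larger. Of all tested genes, 6.62% had a called positive difference and 4.79% a called negative one. With IL-4, Cd14, the LPS co-receptor, fell (-2.36 ± 0.075 in KO and -2.74 ± 0.076 in WT cells) and Tlr4 rose (0.89 ± 0.094 in KO and 0.97 ± 0.094 in WT cells).

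Of 10 TNF receptor and non-canonical pathway genes, 1 was higher and 2 lower in KO M0 cells, 3 higher in KO LPS cells, and 1 higher and 1 lower in KO IL-4 cells. Cd40, a receptor that feeds the non-canonical pathway, was higher in KO LPS cells (1.07 ± 0.11, adjusted p = 7.22e-08), with a larger LPS response (1.15 ± 0.15, adjusted p = 1.83e-05). Map3k14, which encodes the NF-kB-inducing kinase, was lower in KO M0 cells (-0.28 ± 0.095, adjusted p = 0.0325). Of 16 ubiquitin ligases and brakes, 2 were higher and 2 lower in KO M0 cells, 5 higher and 2 lower in KO LPS cells, and 3 higher and 3 lower in KO IL-4 cells. In LPS Tax1bp1, an adaptor of A20, was higher (0.53 ± 0.072, adjusted p = 4.53e-06) and Pdlim2, which promotes loss of nuclear p65, was lower (-0.66 ± 0.10, adjusted p = 2.32e-05), and their differences in LPS response were 0.399 ± 0.093 and -0.598 ± 0.13.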

How the data were processed

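RNA sequencing of total RNA was analysed in 24 libraries. The submitters' processing notes name TopHat2 2.1.0 and HTSeq 0.9.1 with the builds mm10 and GRCm38. The deposited values are raw counts per gene symbol, not normalised. No source used here gives the annotation or whether strand was used. The 5 summary lines, 8.76% to 9.98% of each file's counts, were left out.

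The counts went into edgeR 4.0.16 under R 4.3.3, with filterByExpr by group, TMM scaling and a joint quasi-likelihood fit of the 24 libraries by group (18 residual degrees of freedom), and Benjamini-Hochberg adjustment over 14693 genes. Called means an adjusted p under 0.05. SE is the absolute log2 fold change divided by the square root of F. The fit was run on simulated data that gave every group the WT M0 profile, with genes changed in KO M0 and KO LPS. The run was scored on KO against WT only. It held no LPS response and no split among the KO libraries of a group, so it does not test those parts. No libraries of a group were identical, and the least different pairs within a group, each with a shallow library, gave 1.31 and 1.33 of chi-square per gene. Low depth lowers this value. KO M0 libraries gave 9.09 for 5 and 6 and 8.51 for 7 and 8, against 47.0 to 63.8 for other pairs. KO IL-4 libraries gave 15.7 and 28.0, against 49.1 to 74.8. In KO LPS, 5 and 6 gave 7.65, against 80.8 and 68.8 with 8. WT M0 pairs gave 12.1 to 32.2, WT IL-4 pairs 11.2 to 32.9 and the deep WT LPS pair 24.9. Label numbers recur across states, and deviations of same-numbered libraries from their group means were correlated across 8987 genes. KO M0 and IL-4 libraries of a number gave r from 0.31 to 0.62, above the 0.1 set as the mark of pairing, but those of different numbers reached 0.63, so r does not single out pairs; the fit has no block, which is an alternative. No other pair of states had every r above 0.1.

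Alternatives were DESeq2 1.42.0, its size factors, no filter, fits of the compared groups alone, a replicate block, and leaving out or summing libraries. The members and lists were chosen with earlier results of these data known. All 34 members are accounted for. Single-library values are given for the called members with the 5 smallest adjusted p in each comparison and, whatever their test, for Nfkb1, Rela, Rel, Relb, Nfkb2, Nfkbia, Nfkbib and Tnfaip3, and at most 3 genes of another list are named per comparison. Further single-library values, for Nfkbie, were added after they were seen. Promoters are RefSeq's (GRCm38.p6).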

Additional observations from a re-analysis of the deposited data

Results flagged for a closer look

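In 12 of 204 combinations of a member and a group (5.88%), the highest or lowest of the 4 libraries stood apart from the others by a gap whose share of the group's range exceeded Dixon's 95% critical value. About 1 in 20 combinations would do so by chance. Shallow libraries gave 6 of them: Rel (0 CPM) and Birc2 (0 CPM) had no count in KO LPS library 7, which also held the lowest Chuk (29.9 CPM) and Traf3 (29.9 CPM), and WT LPS library 1 held the lowest Relb (92.8 CPM) and Nfkbie (67.0 CPM). Among deep libraries, Irak2 was lowest in KO LPS library 8 (128 CPM), Cyld highest in KO LPS library 5 (50.0 CPM), Nfkb1 lowest in KO IL-4 library 8 (134 CPM), Birc3 lowest in KO IL-4 library 7 (11.2 CPM), Ikbkg lowest in WT IL-4 library 2 (47.4 CPM) and Dusp1 highest in WT M0 library 3 (95.3 CPM).

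The LPS response of KO minus that of WT passed its test for 19 members. On the log2 scale these differences were 0.31 for Nfkb2, 0.71 for Relb, 0.64 for Nfkbia, 0.57 for Nfkbib, 0.89 for Nfkbie, 0.596 for Bcl3, 0.46 for Ikbkg, 0.44 for Ikbke, 0.48 for Irak2 and 0.51 for Peli1. They were 1.302 for Traf1, 0.34 for Traf2, 0.55 for Birc3, 0.39 for Tnip1, 0.41 for Tnip2, 1.99 for Tnip3, 0.32 for Cyld, 1.03 for Dusp1 and 0.89 for Icam1. The IL-4 response differed for Tnfaip2, by 0.42.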

How the results depend on the processing

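Counts of called members stayed within 1.5 times of the main count under DESeq2's size factors, no filter, fits of the compared groups alone, DESeq2 and without the 3 shallow libraries, in all 9 comparisons (for the IL-4 response difference DESeq2 gave an adjusted p to 29 members). With pairs of libraries summed, KO against WT gave 5 called members in M0 (main 16), 6 in LPS (13) and 4 in IL-4 (11), and the LPS and IL-4 response differences gave 1 (19) and 0 (1). Without KO libraries 5 and 6 KO against WT gave 8 in LPS and 19 in IL-4, and the IL-4 response difference 2. Without KO libraries 7 and 8 KO against WT in LPS gave 22 and the IL-4 response difference 0. The cause was not tested, and these settings have fewer samples. Without KO libraries 5 and 6 the KO LPS group held library 8 and the shallow library 7. The summed WT LPS libraries 1 and 2 were both shallow. Leaving out 1 library gave 15 to 17 called members for KO against WT in M0, 9 to 21 in LPS and 11 to 14 in IL-4, 33 to 34 for LPS against M0 in KO, 32 to 34 in WT, 21 to 23 for IL-4 against M0 in KO, 22 to 24 in WT, 15 to 22 for the LPS response difference and 0 to 1 for that of IL-4. Chuk turned direction in LPS against M0 in KO, to -0.016 with the compared groups alone, and ranged from -0.057 to 0.21 when 1 library was left out. With label numbers as a replicate block, IL-4 against M0 gave 24 called members in KO and 24 in WT (22 each without it), the LPS response difference 22, and the IL-4 response difference 2. The block kept all 22 KO calls. Only 2 of 4 KO libraries correlated best with their own number between M0 and IL-4. The 3 shallow libraries limit members under 15.5 CPM, such as Rel and Nfkbid.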

Other observations

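Further lists downstream of the circuit were counted in the same fit. Of all tested genes, 11.8% were higher and 10.5% lower in KO in M0. These shares were 16.2% and 14.6% in LPS, and 17.9% and 18.2% in IL-4. Of 21 tested genes for induced cytokines and effectors, 2 were higher and 7 lower in KO M0 cells, 10 higher and 1 lower in KO LPS cells, and 1 higher and 6 lower in KO IL-4 cells, each relative to WT. The neutrophil-attracting chemokine gene Cxcl2 was lower in M0 (-1.25 ± 0.17, adjusted p = 8.54e-06) and IL-4 (-0.93 ± 0.24), and Ccl7 lower in M0 (-1.07 ± 0.15). In LPS Il12b, a subunit of IL-12, was higher (3.55 ± 0.24, adjusted p = 5.2e-11), as was the adhesion molecule gene Vcam1 (0.95 ± 0.092, adjusted p = 4.12e-08). The LPS response was larger in KO cells for 11 of the 21 and smaller for 1, with Vcam1 at 1.004 ± 0.12 and Ccl2 at 1.06 ± 0.16. Among all tested genes the KO response minus the WT response was called positive for 6.62% and negative for 4.79%.

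Of 15 phosphatase and mRNA decay genes, 3 were higher and 3 lower in KO M0 cells, 5 higher and 2 lower in KO LPS cells, and 3 higher and 4 lower in KO IL-4 cells. Dusp6, a phosphatase of ERK, was lower in KO cells both in M0 (-0.82 ± 0.083, adjusted p = 1.22e-07) and in LPS (-1.08 ± 0.11, adjusted p = 4.22e-08). The member Dusp1 was lower in M0 and higher in LPS.

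Among the 29 members with a RefSeq window, the 11 with a kB match had a median LPS log2 fold change of 2.83 in KO and 2.52 in WT cells, and the 18 without a match 2.30 in KO and 1.78 in WT cells. The median difference in LPS response was 0.39 with and 0.45 without a match. These are descriptions, with no test.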
